A study of Homo sapiens with 3 samples.

Results

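The heat-shock chaperones described here are 10 genes, HSPA1A, HSPA1B, HSPA8, HSPH1, DNAJB1, HSP90AA1, HSP90AB1, HSPD1, HSPE1 and BAG3, chosen by their symbol in the deposited gene table, which held 61550 genes. RNA-seq was performed on HK1, a cell line established from a nasopharyngeal carcinoma, and every culture had first been kept together with activated CD8+ T cells. The 2 FLI1 knockout (KO) libraries came from cells made with the guides sgFLI1-1 and sgFLI1-2, and the 1 wild-type (WT) library came from HK1 cells without the knockout. The study sought what lies downstream of FLI1, an ETS-family transcription factor, in tumor cells that meet T cells. The sources used here do not state whether the KO cells were clones or pools, and HK1 cells kept without T cells were not analysed here. The table columns numbered 1 and 2 for KO were matched to the guides by that number only, so a swap would exchange the values of the 2 guides and leave KO against WT as it is.

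Heat-shock chaperones bind unfolded or immature proteins and return them to a folded state. In the cytosol, HSP70 proteins hold a substrate in a cycle that J-domain proteins start and nucleotide exchange factors end, and HSP90 takes over many clients late in their folding. HSF1, the main heat-shock factor, binds heat-shock elements in the promoters of these genes when unfolded proteins build up, and tumor cells often keep high levels of the same proteins. Heat-shock elements are built from inverted copies of the unit GAA.

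The promoters are shown first because the genes differ in the elements they hold. RefSeq promoter windows of GRCh38.p14 were found for 10 of 10 genes, 16 windows of 300 bases in all, since some genes have several start sites. Capitals mark head-to-head pairs of units (GAANNTTC) and tail-to-tail pairs (TTCNNGAA), and the 2 run into each other where 3 alternating units follow (GAANNTTC with a further GAA 2 bases on, or the reverse complement of this). Both strands were searched, and positions are counted from the start site as 0. The printed stretches lie upstream of the named start site. They are chr6:31815383-31815542, plus strand, for HSPA1A, chr6:31827578-31827737, plus strand, for HSPA1B, chr11:123062137-123062376, minus strand, for HSPA8, chr19:14518398-14518517, minus strand, for the second DNAJB1 start site, chr14:102087045-102087164, minus strand, for the second HSP90AA1 start site, chr6:44247773-44247852, plus strand, for the HSP90AB1 start site farthest downstream and chr2:197500031-197500090, minus strand, for the second HSPD1 start site.
HSPA1A: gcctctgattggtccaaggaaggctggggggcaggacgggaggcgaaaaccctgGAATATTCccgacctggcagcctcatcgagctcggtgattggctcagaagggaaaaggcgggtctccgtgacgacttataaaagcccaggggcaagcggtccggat
HSPA1B: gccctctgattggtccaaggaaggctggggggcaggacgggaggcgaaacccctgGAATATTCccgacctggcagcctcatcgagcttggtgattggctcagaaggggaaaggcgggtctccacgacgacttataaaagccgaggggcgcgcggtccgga
HSPA8: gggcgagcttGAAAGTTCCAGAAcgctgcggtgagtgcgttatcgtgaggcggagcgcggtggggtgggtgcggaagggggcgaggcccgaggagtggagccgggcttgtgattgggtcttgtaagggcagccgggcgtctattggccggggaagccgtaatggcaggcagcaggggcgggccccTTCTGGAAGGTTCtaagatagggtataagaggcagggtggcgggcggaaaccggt
DNAJB1: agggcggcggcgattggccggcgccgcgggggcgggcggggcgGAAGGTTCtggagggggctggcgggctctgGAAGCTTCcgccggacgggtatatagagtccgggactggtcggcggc
HSP90AA1: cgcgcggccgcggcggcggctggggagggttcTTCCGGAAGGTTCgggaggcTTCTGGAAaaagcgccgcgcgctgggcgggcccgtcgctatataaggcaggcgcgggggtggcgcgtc
HSP90AB1: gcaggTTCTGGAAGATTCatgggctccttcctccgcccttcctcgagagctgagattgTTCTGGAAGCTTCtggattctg
HSPD1: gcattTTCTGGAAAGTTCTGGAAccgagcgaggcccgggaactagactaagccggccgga

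A pair of units in either orientation was found in the windows of 7 of the 10 genes, in 8 of 16 windows, against 13.5% of all 35116 windows of that length. The 3-unit pattern was found in 4 of the 16 windows, those of HSPA8, HSP90AA1, HSP90AB1 and HSPD1, against 0.478% of all windows. HSPA1A and HSPA1B each held a single head-to-head pair, from -106 to -99 and from -105 to -98. Their windows were identical in 92.0% of 301 aligned columns. DNAJB1 held head-to-head pairs from -77 to -70 and from -47 to -40 of its second start site and a further pair just after another of its start sites. The windows of HSPH1, HSPE1 and BAG3 held neither pair, which says only that these letters are not in these windows. The ETS-type sequence CCGGAAGT, searched because FLI1 is an ETS factor, was found in 0 of 16 windows, against 4.14% of all windows. Matches are a description of the letters and not of bound sites.

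**Figure D1:**
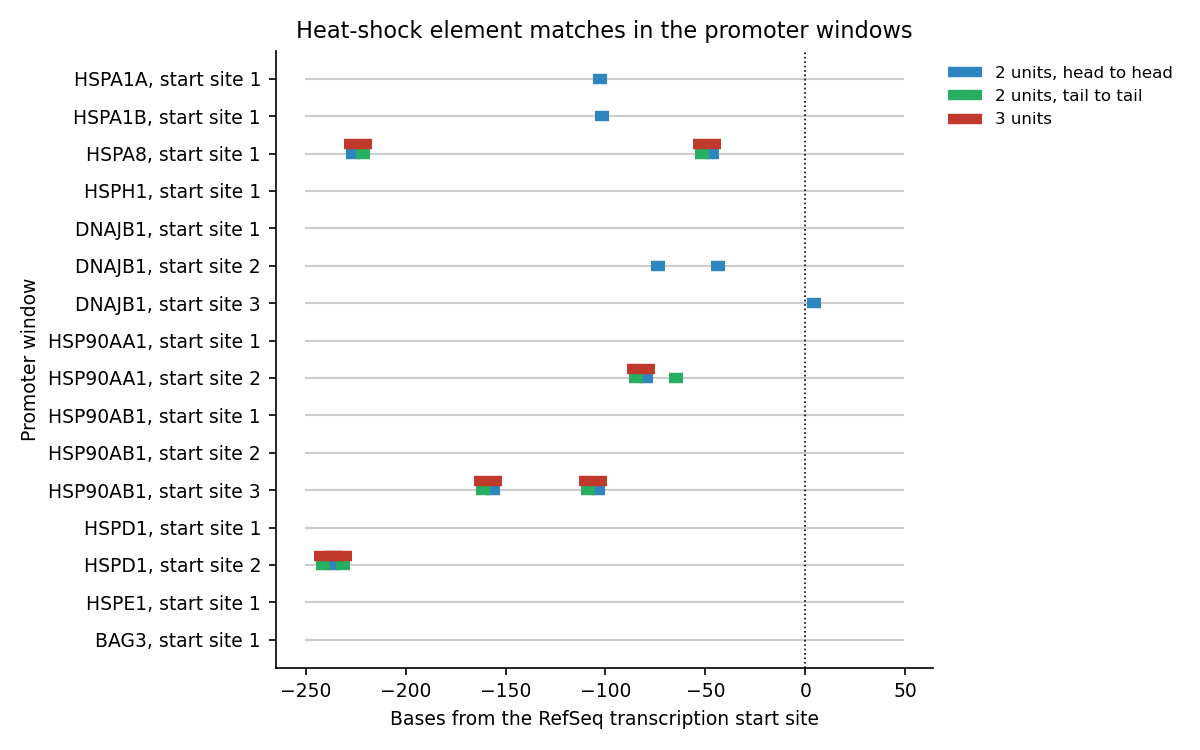
Heat-shock element matches in the 16 RefSeq promoter windows of the 10 genes, placed by distance in bases from the start site (dotted line); each grey line is a window and the colours stand for pairs of units and runs of 3 units. Pairs lie in windows of 7 genes and 3-unit runs in windows of HSPA8, HSP90AA1, HSP90AB1 and HSPD1.

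Depth was similar in the 3 libraries, with 23904587 and 22409203 counts in the KO libraries labelled sgFLI1-1 and sgFLI1-2 and 22172158 counts in WT. Counts of FLI1 were 11 in the library labelled sgFLI1-1, 109 in the library labelled sgFLI1-2 and 125 in WT. At equal depth this was 8.24% of WT for sgFLI1-1 and 85.8% of WT for sgFLI1-2, and the log2 ratio of sgFLI1-2 to WT (-0.22, 95% exact binomial interval -0.61 to 0.16) could not be told from 0 at this depth. A guide can disrupt a protein without lowering its transcript, so the FLI1 transcript does not check the label of that library, and each direction given below for both KO libraries includes it. Of 18 T cell markers 15 were at 0 counts in every library, among them CD3D, CD3E and CD8A, and the list summed to 6 and 17 counts in the KO libraries and 12 in WT. The epithelial keratins KRT8 and KRT18 were abundant in all libraries (628 to 1029 FPKM), whereas KRT5, KRT14, TP63 and CDH1 were at 44 counts or fewer in each. Of the 9 tested epithelial markers 1 was called lower and 0 higher by edgeR and by DESeq2, against 2.95% and 1.83% of all genes tested by edgeR. At an unadjusted p under 0.05 (edgeR), 3 were lower and 0 higher, against 11.1% and 9.63% of all genes tested. KRT19 was the called marker, at 34 and 86 counts in KO and 330 in WT. ITGB4, at 24.3 and 29.2 FPKM in KO and 48.1 FPKM in WT, passed the adjusted p (0.0124, edgeR) but not the 2-fold threshold, and SFN had 51.8 and 51.6 FPKM in KO and 72.0 FPKM in WT. The part of these markers in the changes below was not tested. In such bulk libraries fewer cells of a type and less RNA per cell cannot be told apart.

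The quasi-likelihood test of edgeR was run on 15483 genes and called 4.78% of them, that is, they passed an adjusted p of 0.05 with a change of at least 2-fold. Genes called higher in KO made up 1.83% of the tested genes and genes called lower 2.95%. All 10 heat-shock chaperones passed the filter on low counts. Among them 2 of 10 were called higher, the inducible HSP70 genes HSPA1A and HSPA1B, and 0 of 10 were called lower, with 0 lower at an unadjusted p under 0.05 and 0 lower by DESeq2. The same 2 genes passed the adjusted p without the fold threshold, against 6.88% of all genes (2.62% higher and 4.27% lower). At an unadjusted p under 0.05, 5 of the 10 were higher in KO, against 9.63% of all genes tested, with 11.1% of all genes lower. Both KO libraries lay above WT for 8 of the 10 genes, against 38.4% of all genes, and both lay below WT for 0 of the 10, against 40.8%. The 8 include BAG3, at log2 ratios of 0.03 and 0.04, and HSPE1, at 0.07 and 0.01. Counting intervals included 0 for BAG3 in both KO libraries and for HSPE1 in sgFLI1-2. HSPA1A and HSPA1B share much of their sequence and so are not separate observations. Of the 10 genes 0 were at least 2-fold below WT in both KO libraries, against 6.03% of all genes. The median log2 change was 0.27 over the 10 genes and 0.00 over all genes tested. The 10 genes were chosen with earlier results of these data known. These shares therefore describe the genes and do not test them as a group. WT was a single library, so its own spread was not measured. The KO libraries came from cells made with different guides, and the only spread behind the p-values is that between these libraries. For each gene it was moderated toward that of other genes, with 9.56 prior against 1 residual degree of freedom. The spread between the KO libraries holds any difference between the cells of each guide together with technical differences, which cannot be told apart here. No guide had a repeated library, so the spread within a guide was not measured.

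**Figure D2:**
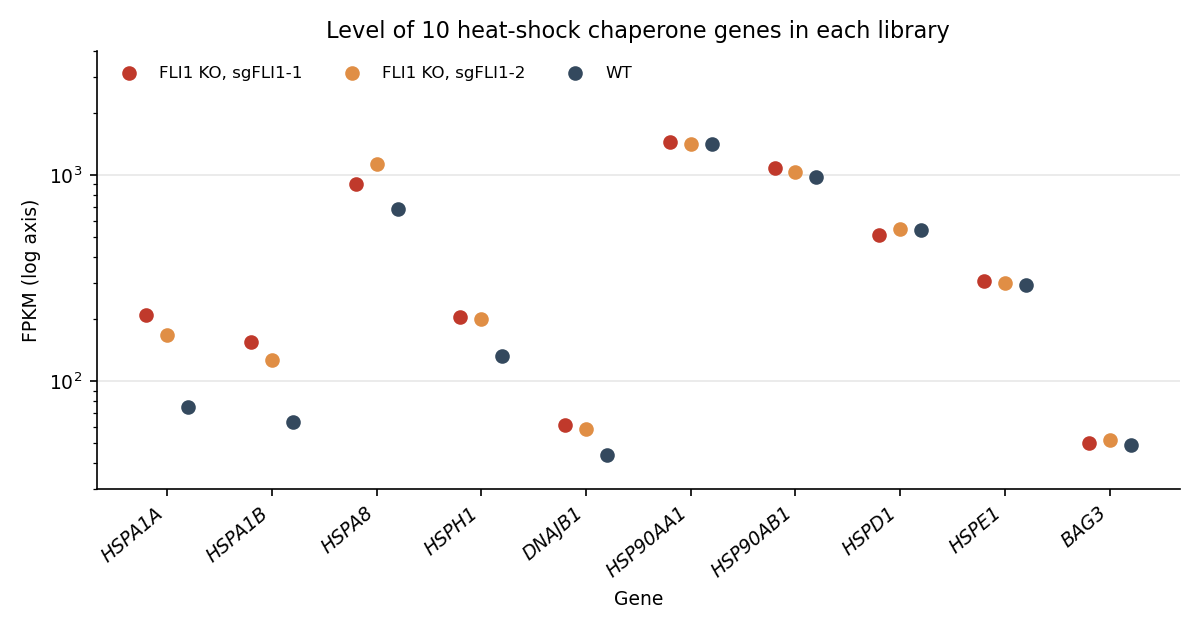
FPKM (log axis) of the 10 genes in the KO libraries sgFLI1-1 and sgFLI1-2 and in WT, 1 point per library. KO points stand clear above WT for HSPA1A, HSPA1B, HSPA8, HSPH1 and DNAJB1, and the 3 points nearly coincide for both HSP90 genes, HSPE1 and BAG3.

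HSPA1A and HSPA1B encode the stress-inducible cytosolic HSP70 in nearly identical copies. HSPA1A (ENSG00000204389, chr6:31815543-31817946, plus strand, in GRCh38 coordinates of the table) had 209 and 168 FPKM in the KO libraries sgFLI1-1 and sgFLI1-2 (mean 189 ± 29.3, SD, n = 2), against 75.0 FPKM in WT. The counts behind these were 13141 and 9836 in KO and 4433 in WT. Both KO libraries lay far above WT, and sgFLI1-1 was the higher of them. HSPA1A rose in KO by 1.31 on the log2 scale (SE 0.19, 2.48-fold, edgeR adjusted p = 0.00216). HSPA1A was the 1 heat-shock chaperone at least 2-fold above WT in both KO libraries, against 4.4% of all genes tested, with log2 ratios of 1.47 for sgFLI1-1 and 1.13 for sgFLI1-2.

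HSPA1B (ENSG00000204388, chr6:31827738-31830254, plus strand) lies next to HSPA1A, with 12195 bases between their start sites. HSPA1B had 155 and 127 FPKM in the KO libraries (mean 141 ± 20.1, SD, n = 2), against 63.0 FPKM in WT, from 10246 and 7842 counts in KO and 3909 in WT. The order of the libraries was that of HSPA1A. HSPA1B rose in KO by 1.15 on the log2 scale (SE 0.19, 2.21-fold, edgeR adjusted p = 0.00432). Taken alone, the library sgFLI1-2 was 1.97-fold above WT and so just under the 2-fold threshold, and sgFLI1-1 was 2.45-fold above it.

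Reads of this pair cannot be fully separated. Of the 150-base windows of the HSPA1A transcript, 69.6% also occurred in HSPA1B, and 66.1% of those of HSPA1B occurred in HSPA1A, so the split between them is uncertain. Summed to 1 gene, the pair had 23387 and 17678 counts in KO and 8342 in WT and rose by 1.24 on the log2 scale (edgeR adjusted p = 0.00205). A same-strand lncRNA that overlaps HSPA1B (ENSG00000285565) had 105 and 43 counts in KO and 28 in WT. The calls of HSPA1A and HSPA1B were lost without the filter on low counts (adjusted p 0.175 and 0.193, edgeR) and under quantile normalization with limma voom (0.139 and 0.144), with the log2 changes at 1.15 or above under both.

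HSPA8 encodes the constitutive cytosolic HSP70, HSC70, which also acts in clathrin uncoating and chaperone-mediated autophagy. HSPA8 (ENSG00000109971, chr11:123057489-123063230, minus strand) had 907 and 1132 FPKM in KO (mean 1019 ± 159, SD, n = 2), against 686 FPKM in WT. Both KO libraries were above WT, and here sgFLI1-2 was the higher, the reverse of the order of the inducible pair. The log2 change was 0.53 (SE 0.15, 95% interval 0.19 to 0.87), with an edgeR adjusted p of 0.0699, which passed 0.05 with median-of-ratios scaling alone (adjusted p 0.0419) among 8 alternatives, whose adjusted p ran up to 0.47. The log2 ratio of sgFLI1-1 to sgFLI1-2 was -0.31 for HSPA8 (counting interval -0.33 to -0.30), 0.35 for HSPA1A and 0.31 for HSPA1B, and it was between -0.01 and 0.09 for the other 7 genes.

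The inducible genes held a larger share of these cytosolic HSP70 transcripts in both KO libraries than in WT. HSPA1A and HSPA1B together had 0.402 and 0.26 of the FPKM of HSPA8 in the KO libraries, against 0.201 in WT. As a share of HSPA1A, HSPA1B and HSPA8 together, the inducible pair held 28.7% in sgFLI1-1, 20.7% in sgFLI1-2 and 16.7% in WT. The libraries did not overlap between KO and WT, but with 1 WT library this ratio was not tested.

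The partners of HSP70 were measured at lower levels than HSPA8. HSPH1 encodes HSP105, an HSP110 protein that exchanges nucleotide on HSP70 and takes part in dissolving aggregates. HSPH1 (chr13:31134973-31162388, minus strand) had 204 and 199 FPKM in KO (mean 201 ± 3.48, SD, n = 2), against 133 FPKM in WT. The KO libraries nearly coincided and lay above WT. The log2 change was 0.46 (SE 0.15, 95% interval 0.14 to 0.79, edgeR adjusted p = 0.097), short of the threshold.

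DNAJB1, also known as HSP40, is the J-domain protein that delivers substrates to HSP70 and stimulates its ATPase. DNAJB1 (chr19:14514769-14560391, minus strand) had 61.5 and 58.4 FPKM in KO (mean 59.9 ± 2.23, SD, n = 2), against 43.8 FPKM in WT. Both KO libraries were again above WT, and the log2 change of 0.45 (SE 0.17, 95% interval 0.06 to 0.83, edgeR adjusted p = 0.175) did not pass the threshold. The gene TECR overlaps DNAJB1 on the other strand, at 2570 and 2450 counts in KO and 2301 in WT, and the sources used here do not state whether counting took strand into account.

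BAG3 links HSP70 to small heat-shock proteins and to selective autophagy and is itself a textbook HSF1 target. BAG3 (chr10:119651380-119677819, plus strand) was the lowest of the 10 genes in KO, with 50.3 and 51.8 FPKM in KO and 49.0 FPKM in WT. The 3 libraries nearly coincided, and the log2 change was 0.04 (SE 0.17, 95% interval -0.34 to 0.41, edgeR adjusted p = 0.928). The interval leaves room for a change of up to 1.33-fold.

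The cytosolic HSP90 genes were the most abundant of the 10 in WT. HSP90AA1, the inducible HSP90 alpha (chr14:102080742-102139699, minus strand), had 1449 and 1412 FPKM in KO and 1409 FPKM in WT, with a log2 change of 0.01 (SE 0.11, 95% interval -0.24 to 0.25). HSP90AB1, the constitutive HSP90 beta (chr6:44246166-44253888, plus strand), had 1076 and 1035 FPKM in KO and 978 FPKM in WT, with a log2 change of 0.09 (SE 0.12, 95% interval -0.18 to 0.36). The edgeR adjusted p was 0.973 for HSP90AA1 and 0.725 for HSP90AB1, and the upper bounds allow a rise of 1.19-fold and 1.29-fold. The FPKM ratio of alpha to beta was 1.35 and 1.36 in KO and 1.44 in WT, so the share of the inducible form was not higher in KO, unlike that of HSP70.

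HSPD1 and HSPE1 encode HSP60 and HSP10, the chaperonin and lid that fold proteins in the mitochondrial matrix, and they lie head to head with 105 bases between their start sites. HSPD1 (chr2:197486584-197516737, minus strand) had 513 and 545 FPKM in KO and 540 FPKM in WT. HSPE1 (chr2:197500140-197503449, plus strand) had 307 and 300.0 FPKM in KO and 291 FPKM in WT. KO and WT overlapped for HSPD1 in FPKM, and its log2 change was 0.01 (SE 0.14, 95% interval -0.29 to 0.31, edgeR adjusted p = 0.977). For HSPE1 the log2 change was 0.04 (SE 0.17, 95% interval -0.33 to 0.41, edgeR adjusted p = 0.918). The deposited gene bounds of the pair overlap on opposite strands, and 10.8% of the 150-base windows of HSPE1 also occur in the read-through gene HSPE1-MOB4, at 91 and 29 counts in KO and 12 in WT.

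**Figure D3:**
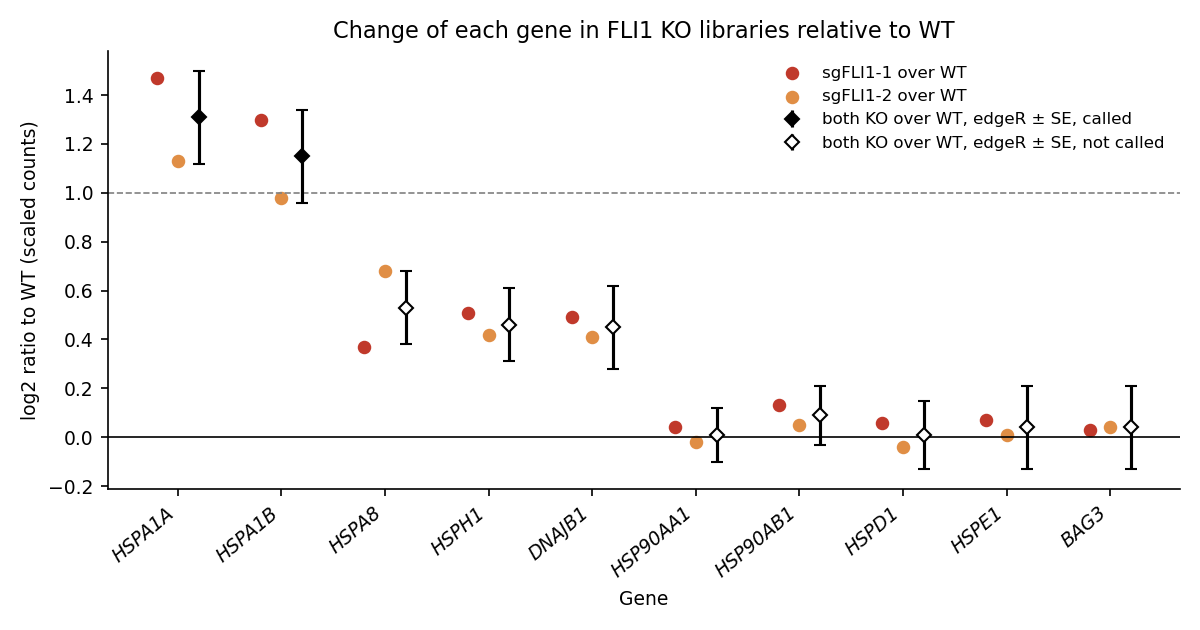
Log2 ratio to WT of each gene, from scaled counts, for the KO libraries sgFLI1-1 and sgFLI1-2 (circles) and for both together by edgeR (diamonds, bars are SE, filled where called); the dashed line is 2-fold. HSPA1A and HSPA1B stand at 1.31 and 1.15, HSPA8, HSPH1 and DNAJB1 between 0.45 and 0.53, and the other 5 genes between 0.01 and 0.09.

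The 10 genes lay at 3 distances from WT, in the values and not by a test between genes. Of the genes with a 3-unit run in a window, HSPA8 was at 0.53 and HSP90AA1, HSP90AB1 and HSPD1 were at 0.09 or less. Of the genes with pairs but no run, HSPA1A was at 1.31, HSPA1B at 1.15 and DNAJB1 at 0.45. Of those with no pair in their windows, HSPH1 was at 0.46 and HSPE1 and BAG3 were at 0.04. These classes depend on the windows. The printed HSPD1 stretch ends at chr2:197500090 and the HSPE1 window begins at chr2:197500129, so the HSPD1 run lies just outside it. Not every window of HSP90AA1, HSP90AB1 and HSPD1 held a run. Together the 10 genes had 4933 and 5029 FPKM in KO, against 4268 in WT, or 1.13% and 1.18% of all FPKM in KO and 1.03% in WT. By FPKM, the order in WT was HSP90AA1, HSP90AB1, HSPA8, HSPD1, HSPE1, HSPH1, HSPA1A, HSPA1B, BAG3 and DNAJB1. In both KO libraries DNAJB1 was above BAG3, in sgFLI1-1 HSPA1A was above HSPH1, and in sgFLI1-2 HSPA8 was above HSP90AB1. The spread within a group is known for KO only, so these changes of order were not tested. The rank among all genes of the table moved most for the inducible pair. HSPA1A ranked 308 and 386 in KO and 969 in WT, and HSPA1B ranked 435 and 526 in KO and 1153 in WT.

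The change of each gene was set beside that of the tested genes within 5 Mb on its chromosome. Around HSPA8, 78 genes had a median log2 ratio to WT of -0.65 in sgFLI1-1 and -0.01 in sgFLI1-2, and 68 and 42 of them were below WT. HSPA8 itself was at 0.37 and 0.68, above the median of its neighbours in both, and it was lower in the library where the neighbours were lower. FLI1, the gene targeted by both guides, also lies on the distal long arm of chromosome 11. Whether the region around HSPA8 has a part in the difference between the guides was not tested. Around HSPA1A, 225 genes had medians of -0.24 and -0.19, and the gene itself stood at 1.47 and 1.13. Around HSPH1, on chromosome 13, 35 genes had medians of 0.30 and 0.19, in the direction of HSPH1 itself (0.51 and 0.42), and the part of the region in that change was not tested. Around DNAJB1 the medians of 237 genes were -0.13 and -0.15, below WT while DNAJB1 was above it. The 225 neighbours of HSPA1B gave the same medians as those of HSPA1A. For both HSP90 genes, HSPD1, HSPE1 and BAG3 the medians were between -0.13 and 0.18 in both libraries.

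**Figure D4:**
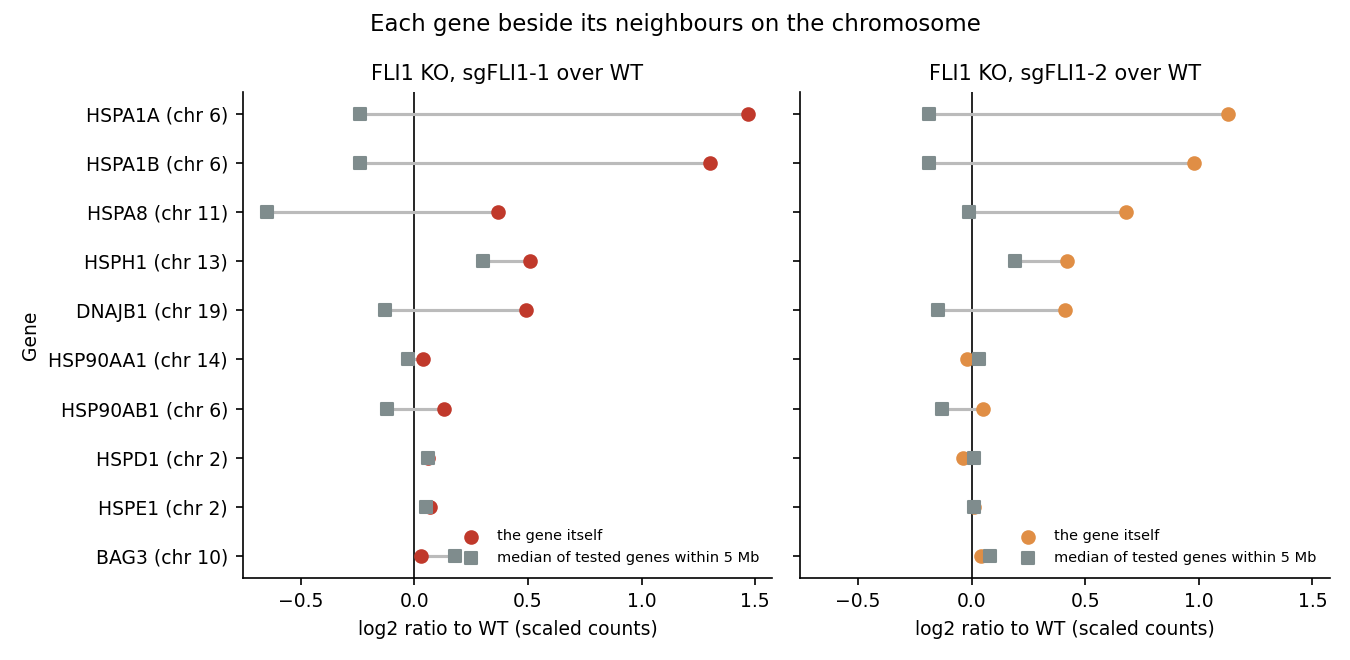
Log2 ratio to WT of each gene (circles) and the median of the tested genes within 5 Mb on its chromosome (squares), for sgFLI1-1 on the left and sgFLI1-2 on the right. HSPA1A, HSPA1B, HSPA8 and DNAJB1 lie above neighbours that are below or near WT, and the neighbours of HSPH1 are above WT as well.

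The wider chaperone network was taken from lists of 130 other genes, of which 115 were tested. Of these, 2 were called higher and 0 lower by edgeR and the same numbers by DESeq2, 1.83% and 2.95% being the shares over all genes tested. At an unadjusted p under 0.05, 21 of the 115 were higher and 4 lower, against 9.63% and 11.1% of all genes tested. Their median log2 change was 0.16, against 0.00 over all genes tested. Both KO libraries were above WT for 65 of the 115 and below WT for 32, against 38.4% and 40.8% of all genes tested. The lists were chosen with earlier results of these data known, so these numbers describe them and do not test them. Some genes, such as FKBP4 and HSPB1, are in several lists, so the numbers per list do not add up to those of the 115. For every list below, the shares over all genes tested are those given above for calls and for an unadjusted p under 0.05 (edgeR).

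The small heat-shock proteins hold unfolding proteins without ATP, and HSPB8 works in a complex with BAG3. HSPB8 had 37.3 and 35.4 FPKM in KO, against 15.3 FPKM in WT, from 1793 and 1618 counts in KO and 703 in WT. Both KO libraries were over 2-fold above WT, and HSPB8 rose by 1.22 on the log2 scale (SE 0.19, edgeR adjusted p = 0.00264), while its partner BAG3 was level. HSPB1, or HSP27, a heat-induced member at much higher level, lay on the other side of WT, with 227 and 177 FPKM in KO and 275 FPKM in WT and a log2 change of -0.48 that did not pass the test (edgeR adjusted p = 0.186). Of the 9 small heat-shock genes 3 were tested and 3 were at 0 counts in every library.

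Among 41 tested J-domain genes other than DNAJB1, 1 was called higher and 0 lower, against 1.83% and 2.95% of all genes tested. At an unadjusted p under 0.05 (edgeR), 4 were higher and 0 lower, against 9.63% and 11.1% of all genes tested. The called gene was DNAJC6, or auxilin, which brings HSPA8 to clathrin-coated vesicles for uncoating. DNAJC6 had 257 and 162 counts in KO and 37 in WT, a low level of 1.72 and 1.10 FPKM in KO and 0.398 FPKM in WT, and rose by 2.43 on the log2 scale (SE 0.43, edgeR adjusted p = 0.00612).

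None of the other chaperone lists had a called gene in edgeR or in DESeq2. Of 11 tested HSP70 and HSP110 genes other than the 3 HSP70 genes and HSPH1 above, 2 were higher and 0 lower at an unadjusted p under 0.05, with a median of 0.32. HSPA4, an HSP110 relative of HSPH1, had 147 and 149 FPKM in KO and 109 FPKM in WT, a log2 value of 0.42 (edgeR adjusted p = 0.141). HSPA6, the strictly heat-inducible HSP70 gene, had 1 and 2 counts in KO and 0 in WT and was not tested. Of 9 other exchange factors 2 were higher and 0 lower at an unadjusted p under 0.05, with BAG1 at 36.1 and 37.1 FPKM in KO and 22.5 FPKM in WT (log2 0.63, edgeR adjusted p = 0.0633).

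Of 20 other HSP90 paralogues and co-chaperones, 6 were higher and 1 lower at an unadjusted p under 0.05. FKBP4, an immunophilin that joins HSP90 to steroid receptors, had 115 and 92.6 FPKM in KO and 65.7 FPKM in WT (log2 0.64, edgeR adjusted p = 0.0732). Its relative FKBP5, a glucocorticoid target that opposes it on those receptors, had 5.59 and 6.48 FPKM in KO and 9.89 FPKM in WT, and its log2 change of -0.74 passed the adjusted p (0.0436, edgeR) but not the 2-fold threshold. Among 13 tested genes known to be induced by heat shock and outside the 10, 4 were higher and 1 lower at an unadjusted p under 0.05, with a median of 0.05. DNAJB4 was at 0.63 and HSPB1 at -0.48 in that list. HSF1 itself had 95.2 and 93.6 FPKM in KO and 80.2 FPKM in WT (log2 0.18, edgeR adjusted p = 0.6), which is a transcript level and not the activity of the factor. Of the 4 tested genes for heat-shock factors and their binding protein, 1 was higher and 1 lower at an unadjusted p under 0.05. The higher one was the binding protein gene HSBP1, at 0.41. The lower one was the factor HSF4, at -1.01, from 48 and 38 counts in KO and 83 in WT.

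No chaperone of newly made or organelle proteins was called in either direction by edgeR or DESeq2. Of 8 subunits of the chaperonin TRiC, which folds actin and tubulin, 1 was higher and 1 lower at an unadjusted p under 0.05, with CCT4 at 0.41 and CCT6A at -0.42. The 6 prefoldin subunits, which hand actin and tubulin to TRiC, had a median of 0.40, with 2 higher and 0 lower at that level. PFDN5 had 103 and 96.4 FPKM in KO and 59.0 FPKM in WT (log2 0.63, edgeR adjusted p = 0.0618). Of 13 other mitochondrial chaperones and proteases 2 were higher and 0 lower at an unadjusted p under 0.05, with a median of 0.10. Of 15 chaperones of the endoplasmic reticulum 3 were higher and 1 lower, with a median of 0.06. The list of the endoplasmic reticulum shares genes with the HSP70, HSP90 and J-domain lists above, so its numbers partly repeat theirs.

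**Figure D5:**
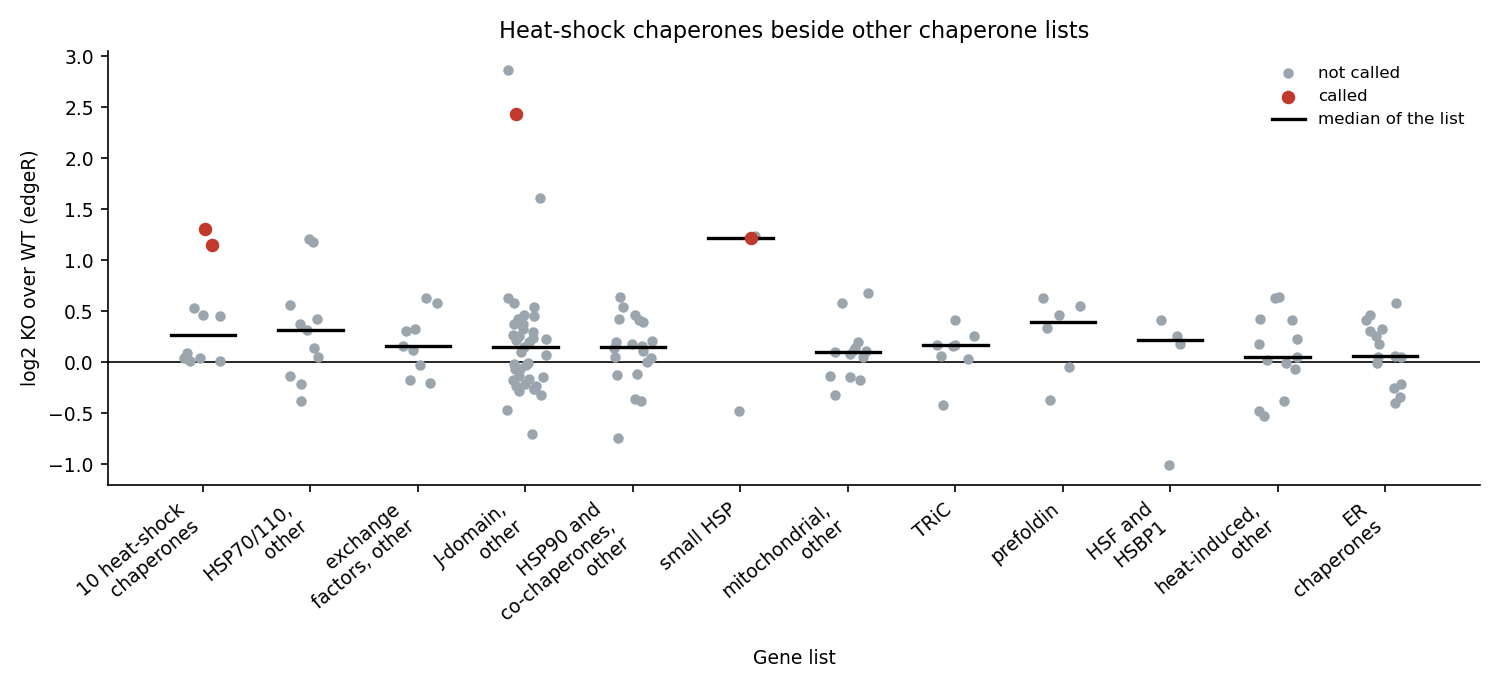
Log2 change of KO over WT (edgeR) of the tested genes of each chaperone list, 1 point per gene, red where called, with the median of the list as a bar. Called genes are HSPA1A and HSPA1B among the 10 heat-shock chaperones, DNAJC6 among the J-domain genes and HSPB8 among the small heat-shock proteins; the highest uncalled point, DNAJC12, had 21 and 11 counts in KO and 2 in WT.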

How the data were processed

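Libraries were made with a NEBNext Ultra kit, and per the labels the authors used fastp (0.23.2), HISAT2 (2.0.4) and StringTie (1.3.4d) on GRCh38. The authors deposited raw read counts and FPKM per gene for all 3 libraries; the sources used here name neither the counting tool nor its use of strand. The authors' FPKM, scaled to length and library size, served for levels and, as alternatives, for limma fits of log2 FPKM.

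Counts of 15483 genes (filterByExpr, minimum count of 10) were tested with edgeR (4.0.16, R 4.3.3), TMM scaling and the quasi-likelihood test, on 1 residual and 9.56 prior degrees of freedom, with Benjamini-Hochberg adjustment over all of them. SE is the log2 change over the square root of F. Single-library ratios of the 10 genes and FLI1 are of scaled counts, and their intervals cover counting error only. Ratios behind the neighbour medians and the numbers of genes 2-fold from WT had 0.5 added to each count. Alternatives used DESeq2 (1.42.0), limma (3.58.1), other filters, scalings and thresholds, and each KO library alone. The script was tested on simulated counts, which cannot show errors of a lone WT library. Named genes were the 10 members, FLI1 and up to 4 called genes of each list, or up to 2 uncalled ones of at least 10 FPKM. FKBP5, HSPA6, HSF1, DNAJC12 and the T cell and epithelial markers other than KRT19 were added after their values were seen. HSPB1, HSF4, HSPA2, DNAJA4, HSPB7 and genes that overlap a member were also named outside this rule. Members and lists were chosen with earlier results of these data known.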

Additional observations from a re-analysis of the deposited data

How the results depend on the processing

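The 740 called genes became 571 with DESeq2, 41 without the filter and 24 with quantile normalization and limma voom. The 283 higher and 457 lower calls became 3 and 38 without the filter and 0 and 24 with quantile normalization. Under both of the last settings 0 of the 10 heat-shock chaperones and 0 of the 115 other chaperone genes were called, against 2 and 2, and 0 of the 10 passed the adjusted p alone, against 2; the cause was not tested. With 1 KO library left out the counts are of genes that differed 2-fold or more from WT in the other, with no test: 2375 to 2872 genes, 1 to 2 of the 10 (HSPA1B is lost with sgFLI1-2 alone) and 7 to 9 other chaperone genes. Of the 115, 6 were at least 2-fold above WT in both libraries and 0 below, a rule added after seeing the data. The shares over all genes tested were 4.4% and 6.03%. Among the 6, HSPA2, DNAJA4, DNAJC12 and HSPB7 had 33 counts or fewer in every library. HSP90AA1, at 0.01, turned to -0.21 under quantile normalization and to -0.02 with sgFLI1-2 alone, and HSPD1, at 0.01, to -0.03 in both limma fits of FPKM and to -0.04 with sgFLI1-2 alone; both were near 0.00 with a minimum of 50 counts. The other 8 of the 10 genes were above 0 under every alternative run. No paired analysis was possible because WT had 1 library. The lone WT library limits each comparison, since its spread was not measured.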

Other observations

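Immediate-early genes, which cells switch on within minutes of a stimulus or stress, were a list outside the chaperones in which more genes passed the test. Of 21 tested, 6 were called higher and 3 lower by edgeR, with the same numbers by DESeq2, against 1.83% and 2.95% of all genes tested. FOS had 10.2 and 6.57 FPKM in KO and 2.32 FPKM in WT (log2 1.81), NR4A1 37.7 and 41.5 FPKM in KO and 14.3 FPKM in WT (log2 1.42), and JUND 57.9 and 37.8 FPKM in KO and 19.1 FPKM in WT (log2 1.31). ZFP36, which binds AU-rich messenger RNAs and hastens their decay, was the lower gene of largest change, at 5.27 and 5.65 FPKM in KO and 17.5 FPKM in WT (log2 -1.67). The list held called genes in both directions, while by the same rule 2 of the 10 heat-shock chaperones were called higher and 0 lower.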
